A study of Mus musculus with 8 samples.

Results

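Expression of 34 genes of the thioredoxin, glutathione and peroxide defence systems was compared between splenic hemophagocytes and resting splenic macrophages. The genes were listed by symbol, and each was represented by the probe set that names it, probe sets naming several genes included, with the highest mean over all 8 arrays. A probe set was found for 31 of the 34 genes, out of 20220 probe sets tested in the series. Prdx5, Prdx6 and G6pdx have no probe set listed under their symbols and were not analysed here. Of the 31, 27 had 1 probe set. Gpx4, Prdx1, Prdx2 and Glrx3 had a second one.

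All mice were wild-type male C57Bl/6j, 8 weeks of age. One group received CpG1826 at 37.5 ug, an oligonucleotide that activates Toll-like receptor 9, with 200 ug of 1B1.3A, an antibody blocking the IL-10 receptor. The other received 200 uL of PBS. Both were dosed 4 times into the peritoneum, on alternate days. Hemophagocytes, which are macrophages that have taken up blood cells, came from the first group and resting macrophages from the second, by laser capture of 20 cells per mouse from spleen touch preparations. The captured cells were pooled, and there were 4 arrays per group (Affymetrix mouse Gene ST 1.0). Treated mice gave no arrays of macrophages free of engulfed cells, so engulfment and treatment cannot be told apart.

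Cells that digest other cells release iron and oxidants, and several enzyme systems remove the oxidants. Superoxide dismutases turn superoxide into hydrogen peroxide, and catalase, the glutathione peroxidases and the peroxiredoxins remove the peroxide. Glutathione peroxidases draw on glutathione, which is rebuilt by glutathione reductase, while peroxiredoxins draw on thioredoxin, which is rebuilt by thioredoxin reductase. Many of these genes are targets of NRF2, a transcription factor encoded by Nfe2l2 and held in check by KEAP1.

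Gpx1 and Txn1 had the largest differences among these genes, with high values on 3 of the 4 hemophagocyte arrays. Gpx1, the cytosolic glutathione peroxidase, averaged 3.35-fold higher in hemophagocytes, and Txn1, cytosolic thioredoxin, 2.74-fold higher. On the remaining array, hemophagocyte 2, both lay below all 4 resting arrays, and neither gene passed the test over all genes. None of the 31 redox genes passed (0 of 31 at a limma adjusted p under 0.05). Over the series 4 of 20220 probe sets passed, 0.0198%. Of the 31 genes, 26 differed by less than 0.2 log2 units in either direction, as did 89.6% of all probe sets tested.

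**Figure D1:**
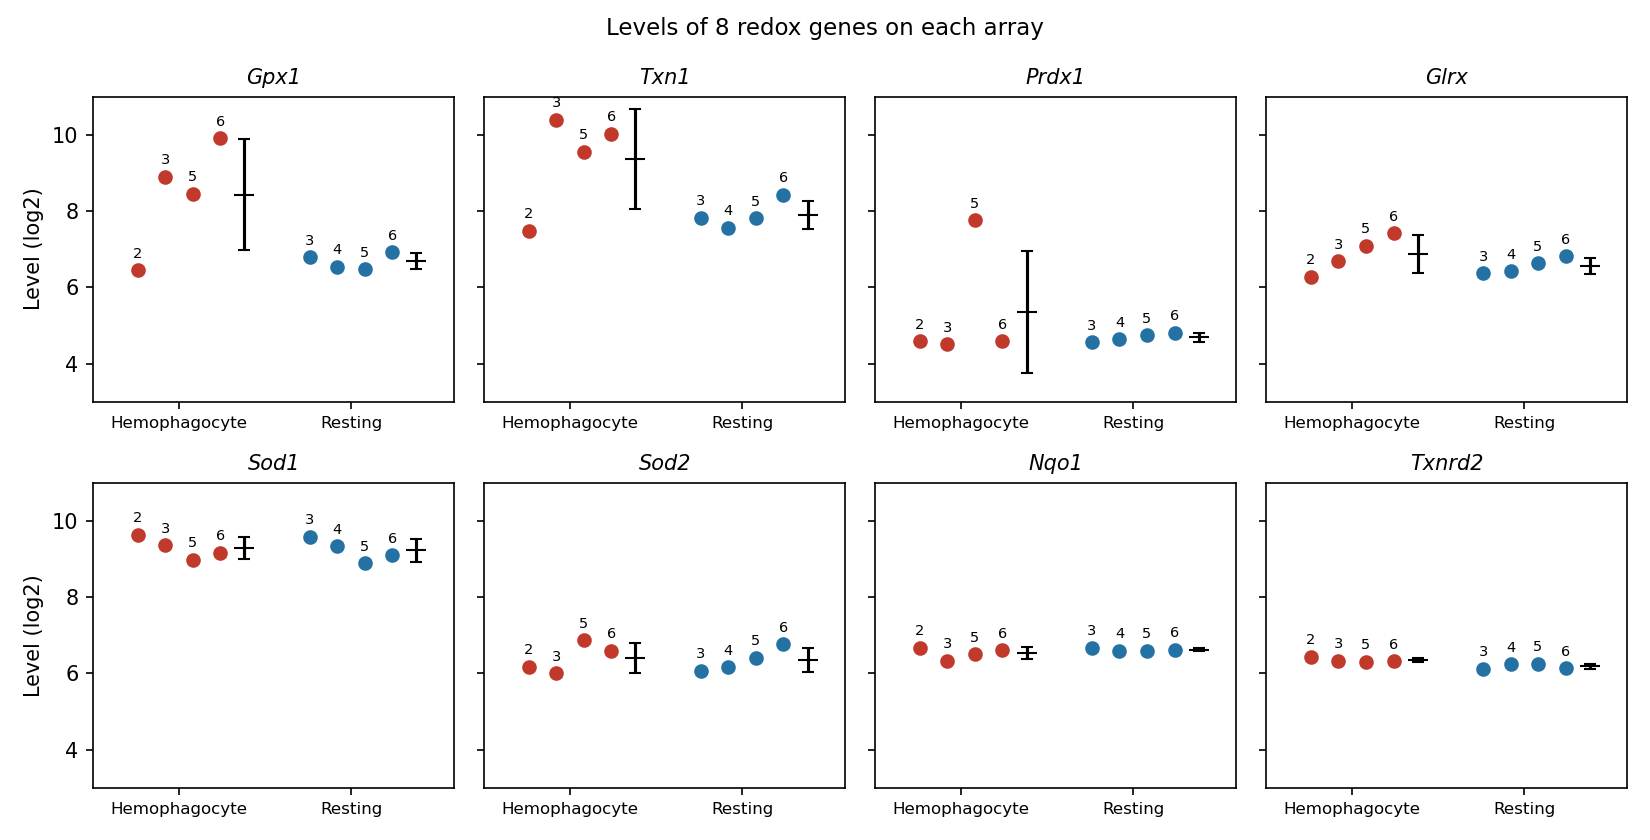
Log2 level of 8 redox genes on each array (points, numbered by replicate; red for hemophagocytes, blue for resting macrophages), with the group mean and SD (n = 4) in black. Gpx1 and Txn1 are high on hemophagocytes 3, 5 and 6 and at resting level on hemophagocyte 2, Prdx1 is high on hemophagocyte 5 alone, and Sod1 and Nqo1 lie in the same range in both groups.

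For the pair of genes with the widest difference, and for Prdx1, which stood out on a single array, the 250 bases before the RefSeq transcription start (build GRCm38.p6, written 5′ to 3′ on the gene's strand) are given next. Capitals mark matches on either strand to the NRF2 element TGACNNNGC or to the AP-1 element TGACTCA, which can overlap each other. Gpx1 lies at chr9:108338830-108339079 on the plus strand, Txn1 at chr4:57956412-57956661 on the minus strand and Prdx1 at chr4:116685349-116685598 on the plus strand.
Gpx1: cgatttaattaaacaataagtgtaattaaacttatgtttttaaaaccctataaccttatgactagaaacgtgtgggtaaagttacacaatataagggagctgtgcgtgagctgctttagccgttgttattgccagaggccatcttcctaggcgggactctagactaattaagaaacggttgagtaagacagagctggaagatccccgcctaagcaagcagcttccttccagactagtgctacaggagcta
Txn1: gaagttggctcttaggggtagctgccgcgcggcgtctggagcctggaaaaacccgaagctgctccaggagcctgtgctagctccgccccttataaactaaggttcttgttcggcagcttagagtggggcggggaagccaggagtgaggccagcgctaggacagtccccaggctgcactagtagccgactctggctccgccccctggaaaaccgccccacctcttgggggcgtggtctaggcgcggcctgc
Prdx1: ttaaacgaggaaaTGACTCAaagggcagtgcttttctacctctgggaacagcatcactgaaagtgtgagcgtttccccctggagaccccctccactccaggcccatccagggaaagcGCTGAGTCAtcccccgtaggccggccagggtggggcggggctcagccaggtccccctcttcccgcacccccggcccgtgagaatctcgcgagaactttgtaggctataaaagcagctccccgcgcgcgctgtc

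In these windows neither element was found for Gpx1 or Txn1. Prdx1 held TGACTCAGC, an NRF2 element that contains the AP-1 element, between 133 and 125 bases before the start on the opposite strand, and a further TGACTCA at 237 to 231 bases before it. Of the 31 listed genes with a window in the RefSeq table, 7 held the NRF2 element (22.6%), against 11.5% of all 27025 genes with a window. These were G6pdx, Gclm, Mgst1, Nfe2l2, Prdx1, Sod1 and Txnrd1. The 31 genes with a window are not the same set as the 31 measured on the arrays. Of 29 measured genes with a window, 6 held the NRF2 element. The AP-1 element was found for 3 of the 31 listed genes with a window (9.68%), Glrx, Prdx1 and Srxn1, against 5.16% of all genes. Genes with several starts counted once if any window matched. A match is a string of letters and does not show binding, and elements lying farther out were not searched.

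Gpx1 uses glutathione to reduce hydrogen peroxide and organic peroxides in the cytosol. Its log2 level was 6.45, 8.89, 8.45 and 9.91 on hemophagocytes 2, 3, 5 and 6, and 6.79, 6.54, 6.47 and 6.92 on resting macrophages 3, 4, 5 and 6. The resting arrays thus spanned less than 1 log2 unit and the hemophagocyte arrays more than 3, with hemophagocyte 2 the lowest of all 8. The group means were 8.42 ± 1.45 and 6.68 ± 0.21 (log2, SD, n = 4 each). The log2 difference was 1.74 (SE 0.56, 95% interval 0.51 to 2.98), with limma adjusted p = 0.74. The fit takes a common spread for both groups, which SDs of 1.45 and 0.21 do not meet. The SE and interval may therefore be too narrow. Without hemophagocyte 2 the difference was 2.40, with limma adjusted p = 0.022. Leaving out the lowest hemophagocyte array can only widen the difference. Without hemophagocyte 3, 5 or 6 alone it was 1.59, 1.74 or 1.25, with limma adjusted p of 0.97, 0.58 and 0.62.

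Txn1 donates electrons to peroxiredoxins and to other proteins with oxidised thiols. Its log2 level was 7.48, 10.39, 9.55 and 10.02 on hemophagocytes 2, 3, 5 and 6, and 7.82, 7.56, 7.81 and 8.42 on resting macrophages 3, 4, 5 and 6. The pattern over the arrays was that of Gpx1, with 3 hemophagocyte arrays above every resting array and hemophagocyte 2 below them. The means were 9.36 ± 1.3 and 7.90 ± 0.37 (log2, SD, n = 4 each), and the log2 difference was 1.45 (SE 0.51, 95% interval 0.32 to 2.59), with limma adjusted p = 0.74. As for Gpx1, the groups differed in spread, so the SE and interval may be too narrow. Without hemophagocyte 2, again the lowest array, the difference was 2.08, with limma adjusted p = 0.013. Without hemophagocyte 3, 5 or 6 alone it was 1.11, 1.39 or 1.23, with limma adjusted p of 0.97, 0.58 and 0.63. Hemophagocytes 3 and 5 were the arrays with the most high values over all genes. Leaving out both gave log2 differences of 1.5 for Gpx1 and 0.85 for Txn1, both at adjusted p = 0.96.

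At least 3 of the 4 hemophagocyte arrays lay 1 log2 unit or more above every resting array in 2 of the 31 redox genes, Gpx1 and Txn1. Over the series this held for 18 of 20220 probe sets, 0.089%. This count was defined after the values of these genes had been seen. In the opposite direction it held for 0 redox genes and 0 probe sets in all.

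Markers of several cell types varied over the same arrays. The macrophage marker list (15 measured genes, 7 of them above the mean of olfactory and vomeronasal receptor probe sets on all arrays and 3 below it on all) averaged 6.45, 7.01, 7.44 and 6.53 on hemophagocytes 2, 3, 5 and 6 and 6.58 to 6.70 on the resting arrays. Lyz2, the macrophage lysozyme, had log2 levels of 5.86, 9.95, 9.96 and 6.55 on hemophagocytes 2, 3, 5 and 6, whereas resting arrays held 7.45 to 8.89. Lyz2 was thus above every resting array on hemophagocytes 3 and 5 and below every one on hemophagocytes 2 and 6. The other markers were mixed on hemophagocyte 6. C1qa, a complement subunit made by macrophages, was at 7.49 there, above the resting arrays at 7.10 to 7.35. C1qb was at 7.69, within the resting range of 7.29 to 7.82. Csf1r was at 6.06, below the resting arrays at 6.33 to 6.48, as Lyz2 was. Of the 15 markers, 10 had differences above 0, with a list median of 0.16, and 0 passed. Cd68, a lysosomal glycoprotein of macrophages, reached 9.66 on hemophagocyte 3 and 10.52 on hemophagocyte 5, with the remaining 6 arrays between 7.21 and 7.50. The part of macrophage content in the Gpx1 and Txn1 values was not tested, and in pooled cells fewer cells of a type and less RNA per cell cannot be told apart.

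The erythroid list (8 measured probe sets, 1 below the receptor mean on all arrays) averaged 6.42 to 7.64 on hemophagocytes and 7.20 to 7.71 on resting arrays. The alpha globin probe set, which names Hba-a1 and Hba-a2, gave 6.06, 7.77, 8.93 and 10.46 for hemophagocytes 2, 3, 5 and 6, while resting arrays ranged from 8.68 to 10.41. Among the 8 arrays the alpha globin signal was lowest on hemophagocyte 2 and, by a small margin, highest on hemophagocyte 6, and the groups overlapped. Gpx1 had the same lowest and highest arrays. The beta globin probe set was also lowest on hemophagocyte 2, at 5.85. On hemophagocyte 6 it was at 11.34, within the resting range of 9.59 to 11.71. The alpha and beta globin probe sets ranged over 4.40 and 5.86 log2 units, and the rest of the erythroid list over 0.23 to 0.39. The spread of the list mean thus came from the globins. Of the 8 erythroid probe sets, 3 had differences above 0 and the median was -0.01. Of the platelet list (7 genes, mean 6.54 to 7.23 on hemophagocytes and 6.72 to 6.87 on resting arrays), 3 had differences above 0 and the median was -0.02. Pf4, a platelet chemokine, varied most, at 6.10, 10.35, 9.11 and 5.49 on hemophagocytes 2, 3, 5 and 6, with resting arrays from 6.61 to 7.41. Its range was 4.87 log2 units, against 0.16 to 0.50 for the rest of the platelet list. Of the neutrophil list (11 genes, mean 6.22 to 6.64 and 6.19 to 6.29), 4 had differences above 0 and the median was -0.05. S100a9, a calcium-binding protein abundant in neutrophils, gave 6.35, 9.12, 6.01 and 7.33 on hemophagocytes 2, 3, 5 and 6, with resting arrays from 6.12 to 6.34. S100a8 and S100a9 ranged over 3.42 and 3.11 log2 units, and the rest of the neutrophil list over 0.17 to 0.86. All single marker genes named here, those of the macrophage and erythroid lists included, were picked from their lists with their values known. The lists of B cells (7 genes, mean 6.13 to 6.35 on hemophagocytes and 6.26 to 6.39 on resting arrays), T cells (7 genes, 6.43 to 6.57 and 6.50 to 6.59) and NK cells (8 genes, 5.89 to 6.23 and 6.26 to 6.29) were lowest on hemophagocyte 3. That array also had the lowest receptor mean, 5.85 against 6.05 to 6.26 on the others, and the lowest array median, 6.10. Low list means there are thus not particular to these cell types. The part of these lists in the redox values was not tested.

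**Figure D2:**
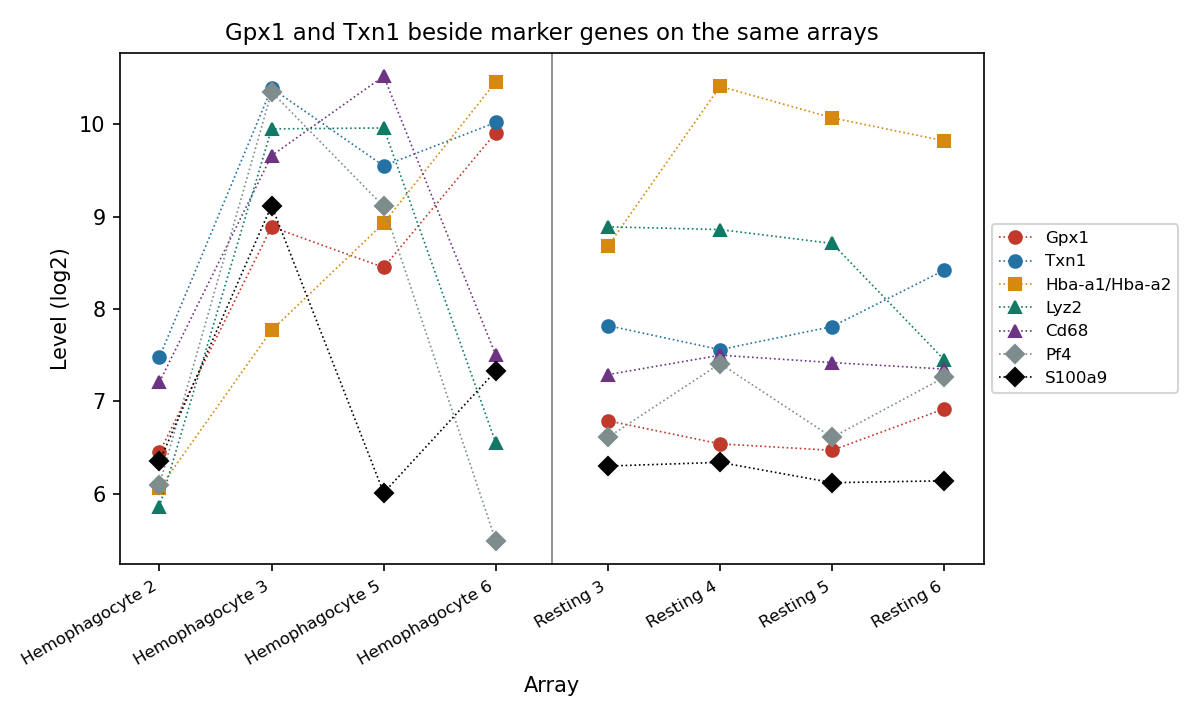
Log2 levels of Gpx1 and Txn1 (circles) on the 8 arrays beside alpha globin (squares), the macrophage genes Lyz2 and Cd68 (triangles), and Pf4 and S100a9 (diamonds); dotted lines join the points of one gene within a group and stand for no order. Most of the genes are low on hemophagocyte 2; on hemophagocyte 6 Gpx1 (9.91) and alpha globin (10.46) are at their highest while Lyz2 is at 6.55, and on resting arrays alpha globin is at 8.68 to 10.41 and Gpx1 at 6.47 to 6.92.

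The other peroxidases showed no such pattern. Gpx4, which protects membranes by reducing lipid peroxides, had means of 6.75 ± 0.17 for hemophagocytes and 6.57 ± 0.13 for resting macrophages, while its second probe set had 6.69 ± 0.20 and 6.59 ± 0.07 (log2, SD, n = 4 each). The difference of 0.18 (95% interval -0.04 to 0.40) had limma adjusted p = 0.74. Gpx3, the secreted plasma form, ranged from 4.65 to 5.06 and from 4.84 to 4.99, below the receptor mean on every array. Catalase, Cat, stood between 6.02 and 6.35 in hemophagocytes and between 6.25 and 6.48 in resting macrophages, a difference of -0.07 (95% interval -0.28 to 0.13). Gpx1 therefore stood alone among the glutathione peroxidases and catalase in the size of its difference, although its difference from theirs was not tested.

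The superoxide dismutases had nearly equal group means. Sod1, the cytosolic copper-zinc enzyme, had log2 levels of 9.64, 9.36, 8.98 and 9.16 on hemophagocytes 2, 3, 5 and 6 and of 9.58, 9.33, 8.89 and 9.10 on resting macrophages 3, 4, 5 and 6. The groups covered almost the same range, and the difference was 0.06 (SE 0.17, 95% interval -0.31 to 0.43). Sod2, the mitochondrial manganese enzyme that inflammatory signals are known to induce, stood at 6.18, 6.00, 6.87 and 6.59 against 6.07, 6.16, 6.41 and 6.76, a difference of 0.06 (SE 0.20, 95% interval -0.38 to 0.50). The intervals of both leave room for differences of up to 0.43 and 0.50 log2 units.

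In the thioredoxin system all 5 measured genes had values above 0 for the difference, and none passed. Txnrd2, the mitochondrial thioredoxin reductase, was the 1 redox gene of 31 whose groups did not overlap. It stood at 6.44, 6.33, 6.31 and 6.32 on hemophagocytes 2, 3, 5 and 6 and at 6.13, 6.24, 6.25 and 6.14 on resting macrophages 3, 4, 5 and 6. The difference was small, 0.16 (SE 0.07), with limma adjusted p = 0.74. Over the series 0.816% of probe sets lay wholly higher in hemophagocytes and 3% wholly lower, and no redox gene (0 of 31) was wholly lower. Txnrd1, the cytosolic reductase that keeps Txn1 active, averaged 6.37 ± 0.07 against 6.23 ± 0.09, a difference of 0.15 (95% interval -0.01 to 0.31). Its probe set thus did not share the array pattern of Txn1. Txn2, the mitochondrial thioredoxin, differed by 0.06 (95% interval -0.19 to 0.31), and Txnip, which binds and inhibits thioredoxin, by 0.09 (95% interval -0.05 to 0.24).

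**Figure D3:**
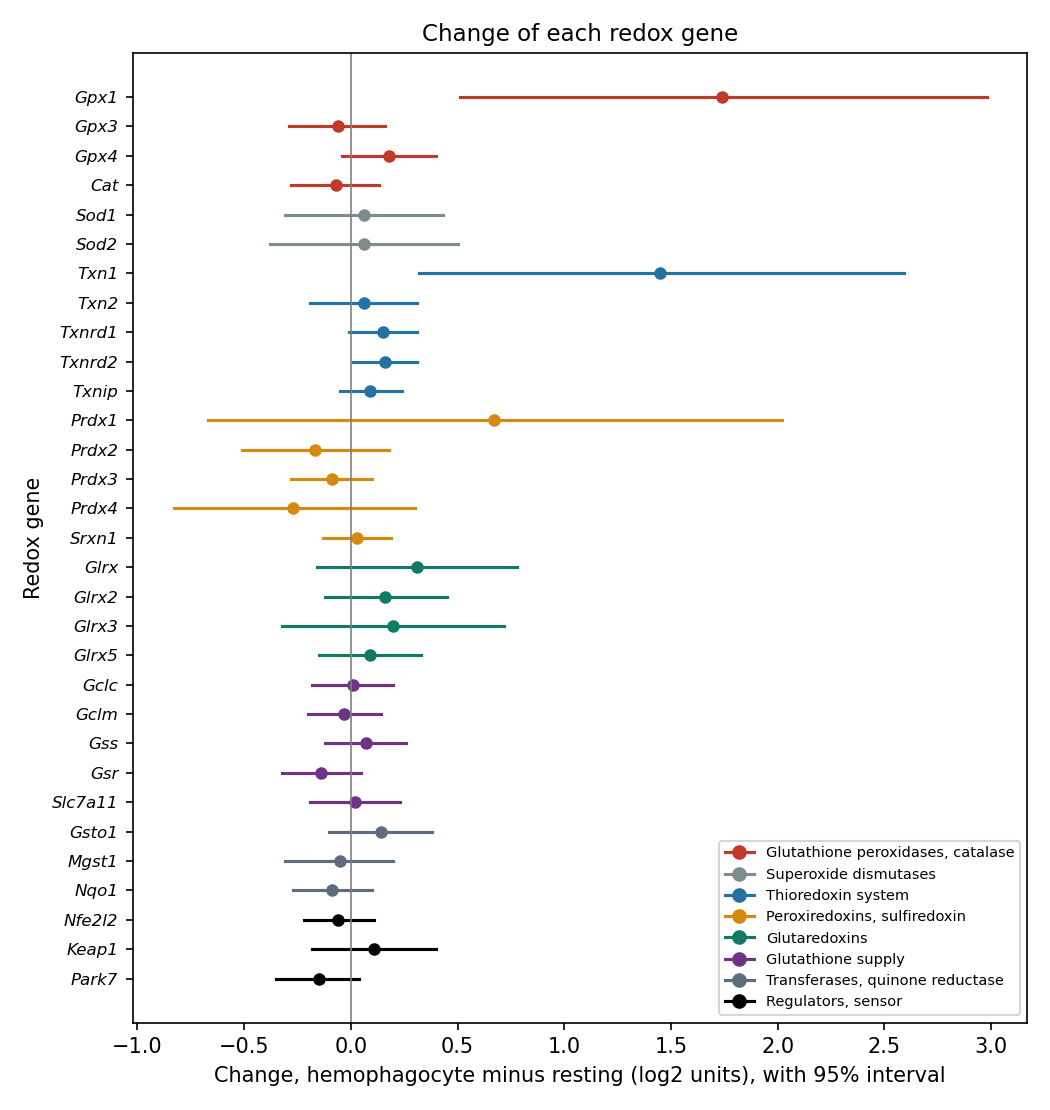
Difference in log2 level (hemophagocyte minus resting macrophage, n = 4 arrays each) of the 31 measured redox genes, with 95% intervals from the limma fit that are not adjusted for the number of genes, coloured by role. The intervals take a common spread for both groups of a gene. Gpx1 at 1.74 and Txn1 at 1.45 stand apart from the rest, Prdx1 has the widest interval, and 26 genes lie within 0.2 of 0.

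Of the peroxiredoxins, which remove low levels of peroxide with a reactive cysteine, Prdx1 was high on a single array. Its log2 level was 4.59, 4.51, 7.75 and 4.58 on hemophagocytes 2, 3, 5 and 6, and 4.56, 4.63, 4.74 and 4.81 on resting macrophages 3, 4, 5 and 6. Its second probe set gave the same picture, at 8.08 on hemophagocyte 5, 3.70 to 4.19 on the other hemophagocytes and 3.77 to 4.47 on resting arrays. The mean difference was 0.67 (SE 0.61, limma adjusted p = 0.81), and it was -0.12 without hemophagocyte 5. Prdx4, the peroxiredoxin of the endoplasmic reticulum, was high on a resting array instead, at 7.06 on resting macrophage 3 against 5.64 to 5.83 on the other resting arrays and 5.76 to 5.85 on hemophagocytes. Its mean difference was -0.27 (95% interval -0.83 to 0.30), and 0.06 without resting macrophage 3.

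Prdx2, the peroxiredoxin abundant in red cells, ranged from 6.24 to 6.96 in hemophagocytes and from 6.48 to 7.04 in resting macrophages, a difference of -0.17 (95% interval -0.51 to 0.18). Its second probe set averaged 5.73 ± 0.13 and 5.6 ± 0.40 (log2, SD, n = 4 each), so the probe sets of Prdx2 had opposite signs. Prdx3, the mitochondrial form, differed by -0.09 (95% interval -0.28 to 0.10). Srxn1, sulfiredoxin, which repairs over-oxidised peroxiredoxins, differed by 0.03 (95% interval -0.13 to 0.19), and its 8 values lay between 6.59 and 6.76.

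Glutaredoxins, small enzymes that use glutathione to reduce protein thiols, had values above 0 in 4 of 4 genes, none past the threshold. Glrx, the cytosolic form, stood at 6.27, 6.68, 7.09 and 7.42 on hemophagocytes 2, 3, 5 and 6 and at 6.36, 6.42, 6.63 and 6.81 on resting macrophages 3, 4, 5 and 6. Hemophagocyte 2 was again the lowest of all arrays and hemophagocyte 6 the highest, as for Gpx1. The difference was 0.31 (SE 0.21, 95% interval -0.16 to 0.78), with limma adjusted p = 0.76. Glrx2, which acts in mitochondria, differed by 0.16 and Glrx5, which serves iron-sulfur cluster assembly in mitochondria, by 0.09. For Glrx3, a cytosolic iron-sulfur chaperone, the probe set taken also names the predicted gene Gm12669, and its difference was 0.20 (95% interval -0.32 to 0.72). The probe set that names Glrx3 alone reached 8.64 on hemophagocyte 3, with the remaining 7 arrays between 4.40 and 5.99.

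Genes that make, recycle and feed glutathione had small differences between the groups. The 5 genes had differences between -0.14 and 0.07. Gclc and Gclm, the catalytic and modifier subunits of glutamate-cysteine ligase, the first step of glutathione synthesis, differed by 0.01 (95% interval -0.18 to 0.20) and -0.03 (95% interval -0.20 to 0.14). Gss, glutathione synthetase, differed by 0.07 (95% interval -0.12 to 0.26). Slc7a11, which imports cystine, differed by 0.02 (95% interval -0.19 to 0.23) and was highest on hemophagocyte 5 at 6.52. Resting means of Gclc, Gclm and Slc7a11 lay -0.03, -0.33 and 0.03 log2 units from the receptor mean. At that level a difference in transcript could go unseen. Gsr, the reductase that restores glutathione after Gpx1 and the glutaredoxins have used it, averaged 6.69 ± 0.09 against 6.82 ± 0.12, a difference of -0.14 (95% interval -0.32 to 0.05, limma adjusted p = 0.75).

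The transferases, the quinone reductase and the regulators did not stand out. Gsto1, an omega-class glutathione transferase, differed by 0.14, Mgst1, a microsomal transferase, by -0.05, and Nqo1, a quinone reductase widely used as an NRF2 readout, by -0.09 (95% interval -0.27 to 0.10). Nfe2l2 averaged 6.37 ± 0.06 against 6.43 ± 0.10, and its inhibitor Keap1 5.50 ± 0.22 against 5.40 ± 0.22 (log2, SD, n = 4 each). Park7, the oxidant-sensitive protein DJ-1, stood at 6.39 to 6.64 in hemophagocytes and 6.50 to 6.80 in resting macrophages, a difference of -0.15 (95% interval -0.35 to 0.04). NRF2 acts mainly through protein stability, which transcript levels of Nfe2l2 and Keap1 do not measure.

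**Figure D4:**
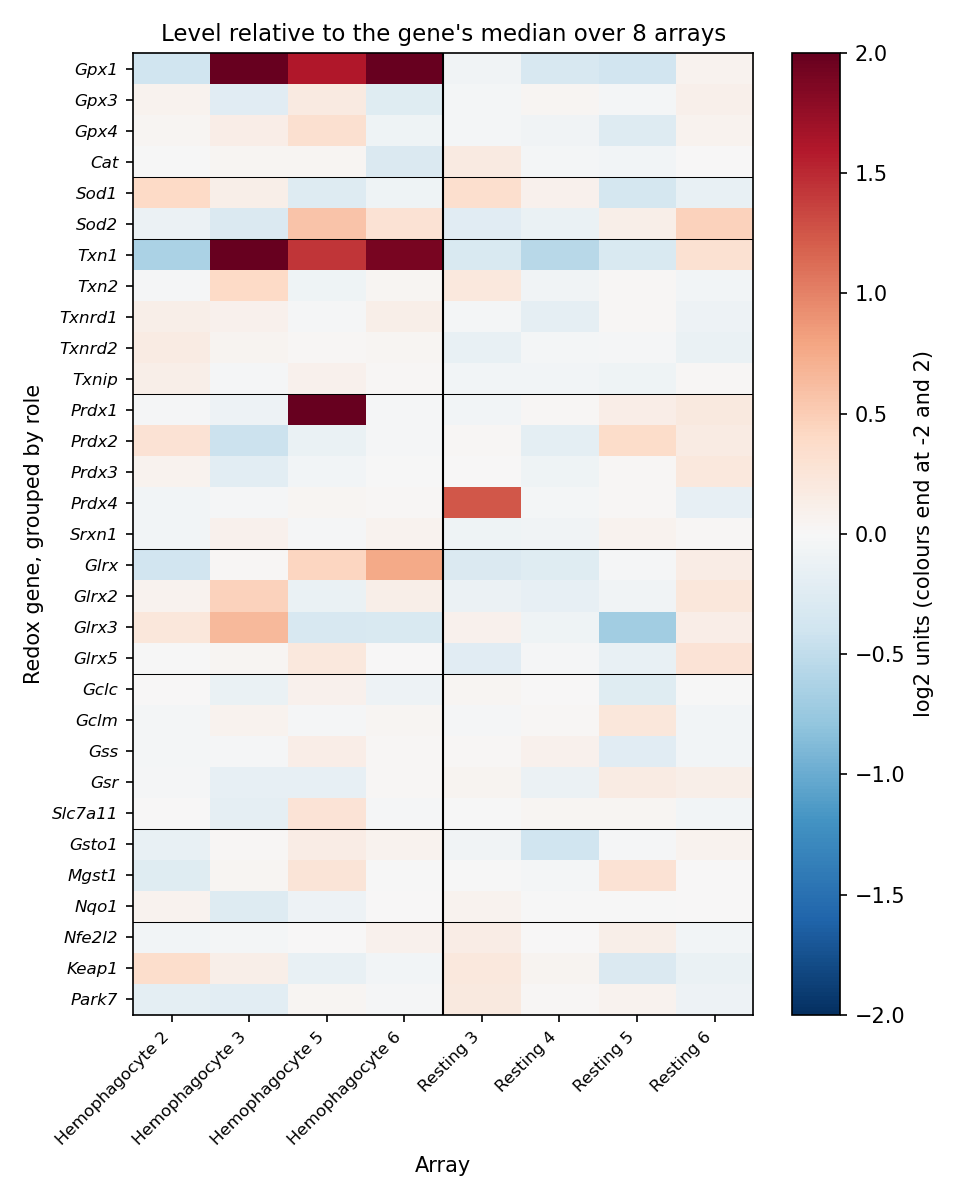
Log2 level of each of the 31 redox genes relative to its own median over the 8 arrays, with genes grouped by role in rows and arrays in columns; colours end at -2 and 2. The strong colours are Gpx1 and Txn1 on hemophagocytes 3, 5 and 6, Prdx1 on hemophagocyte 5 and Prdx4 on resting macrophage 3.

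As a list, the 31 genes had a median difference of 0.06 and a mean of 0.15, and 20 of them (64.5%) had values above 0. Over all probe sets tested the median was -0.04 and 36.2% lay above 0. The share over all probe sets depended on scaling. With quantile normalization it was 45.4% (19 redox genes above 0), with arrays centred on their medians 46.3% (20 redox genes), and with cyclic loess 51.0% (21 redox genes). At an unadjusted p under 0.05 in limma, 3 redox genes had higher values (Gpx1, Txn1 and Txnrd2) and 0 had lower ones. Over the series 1.56% of probe sets were higher and 5.08% lower at that level, 315 and 1027 probe sets. Quantile normalization gave 498 higher and 764 lower, centring each array on its median gave 510 and 701, and cyclic loess gave 632 and 554. The redox count was 4 under each of these 3 scalings, with Txnrd1 added, and 1 (Txnrd2) with the intensity trend and robust prior, where Gpx1 and Txn1 no longer reached that level. With receptor background as a covariate it was 3, Gpx1, Sod2 and Glrx. Without hemophagocytes 3 and 5 no redox gene (0 of 31) reached an unadjusted p under 0.05.

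The spread over the arrays was uneven. Gpx1, Txn1 and Prdx1 ranged over more than 1.5 log2 units across the 8 arrays, 9.68% of the redox genes against 1.5% of all probe sets, while 25 of the 31 ranged over less than 1. The limit of 1.5 was not fixed in advance, so these shares are a description only. As a scale for these levels, 1168 probe sets of olfactory and vomeronasal receptor genes, which macrophages are not known to use, had array means of 5.85 to 6.26, and their 95th percentile lay between 7.45 and 7.83. Sod1 lay above that percentile on all 8 arrays, Txn1 on 6, Gpx1 on hemophagocytes 3, 5 and 6, and Prdx1 on hemophagocyte 5. The other 27 genes lay below it on every array. Among them 6 (Gpx3, Prdx3, Gsto1, Mgst1, Keap1 and Txnip) also lay below the receptor mean on all 8 arrays. Probe sets differ in brightness for reasons other than transcript number, so this calls no gene present or absent.

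Further genes of the same systems did not pass either. In the NADPH oxidase, the source of phagocyte superoxide, 0 of 6 measured genes passed. Cyba, its p22phox subunit, had log2 levels of 6.24, 8.98, 6.66 and 6.32 on hemophagocytes 2, 3, 5 and 6, and resting arrays held 5.94 to 6.31. Rac1, a regulatory GTPase of the complex, differed by 0.17, Rac2 by -0.07 and Cybb, the catalytic subunit, by -0.08. Cyba was thus high on 1 array, hemophagocyte 3.

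Among 22 genes of glutathione conjugation and salvage, 0 passed. Gstp1, a pi-class glutathione transferase with a near-identical neighbour, Gstp2, from which a probe set may not separate it, had the smallest p of the list. It stood at 8.54, 8.12, 8.42 and 8.26 on hemophagocytes 2, 3, 5 and 6 and at 8.58, 8.76, 8.66 and 8.74 on resting macrophages 3, 4, 5 and 6. All 4 hemophagocyte arrays were lower than every resting array, as for 3% of all probe sets, by a margin of less than 0.1 between the nearest arrays. The difference was -0.35 (SE 0.10, limma adjusted p = 0.74). Gstt2, a theta-class transferase, lay wholly higher, as did 0.816% of all probe sets, at 5.71, 6.04, 5.89 and 5.63 on hemophagocytes 2, 3, 5 and 6 and 5.53 to 5.6 on resting arrays. Its difference was 0.26 (SE 0.09, limma adjusted p = 0.74). Glo1, glyoxalase, differed by -0.27 and Oplah, which salvages glutamate from glutathione breakdown, by -0.16.

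Of 15 genes of the thioredoxin fold and of methionine sulfoxide repair 0 passed. Msrb2, a mitochondrial methionine sulfoxide reductase, differed by 0.19, Txnl1, a thioredoxin-like protein, by 0.18, and Txnrd3 by -0.14. Txndc17, a cytosolic thioredoxin-like protein, differed by 0.40 and reached 7.38 on hemophagocyte 5, with the remaining 7 arrays between 5.71 and 6.34. Of 18 partners and other targets of NRF2 0 passed. Mafk, a small Maf protein that pairs with NRF2 on DNA, differed by -0.17, Cul3, the ubiquitin ligase scaffold that works with KEAP1, by 0.26, Idh1, a source of NADPH, by 0.22, and Blvrb, a biliverdin reductase, by 0.16. Of 13 genes of selenoprotein synthesis and other selenoproteins 0 passed. Eefsec, the elongation factor that delivers selenocysteine to proteins such as Gpx1 and Txnrd1, differed by 0.21, Selenow by 0.33, Sephs2, which makes the selenium donor, by 0.10 and Selenom by 0.08. Selenom lay wholly higher too, as did 0.816% of all probe sets, at 4.56 to 4.59 against 4.37 to 4.55, with limma adjusted p = 0.79. Its values lay below the receptor mean on all 8 arrays, and the nearest arrays of the groups were almost equal.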

How the data were processed

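Values came from the deposited table of 35556 probe sets on 8 arrays. They are on the log2 scale as judged from their range, and the authors used Affymetrix Expression Console 1.1 per the submitters' processing notes. How they were background-corrected, summarised and normalized is not stated in the labels or the table. Array medians were 6.10 to 6.17, arrays correlated at 0.925 to 0.974 across genes, and hemophagocytes 3 and 5 held 179 and 182 probe sets more than 1 log2 unit above their median over the arrays, against 10 to 36 on the other 6. Arrays have no read depth, and their number limits the precision.

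The platform annotation named 1 gene for 21789 probe sets, several for 1621 and listed none for 12146. For each of 21335 symbols the probe set with the highest mean was taken, giving 20220 different probe sets, with no filter on level. They were fitted together with limma 3.58.1 in R 4.3.3 (lmFit, eBayes, no block). The fit was first tried on simulated normal values with the same spread in both groups. That trial does not show how it treats unequal spreads or single high arrays. P-values were adjusted by Benjamini-Hochberg over all 20220. Differences are hemophagocyte minus resting macrophage, and intervals are 95%. The smallest two-sided p of an exact permutation of 4 against 4 arrays is 0.0286, so none is given. Groups and replicate numbers come from sample titles. The labels do not tie arrays to mice. The p-values therefore reflect only how these samples vary, which may be technical variation.

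The redox genes, the other lists and the alternatives were chosen with earlier results of these data known. The text names all measured redox genes, and from each program list the 4 genes of smallest p. Whether probes also match related genes or pseudogenes was not checked, since probe sequences were not used here. Promoter windows and names come from RefSeq tables of GRCm38.p6, and Gsr, Gclc and Prdx6 have no window there. The alternatives were 3 scalings (quantile, array median, cyclic loess), probe sets above the median level only, eBayes with a trend and robust prior, limma's array weights, only probe sets naming 1 gene, the mean of a gene's probe sets, every probe set separately, the replicate number as a block, receptor background as a covariate, hemophagocytes 3 and 5 left out, and each array left out.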

Additional observations from a re-analysis of the deposited data

Results flagged for a closer look

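In 6 of 62 groups of 4 arrays (31 genes in 2 groups) 1 array lay far from the other 3 by Dixon's criterion, which chance meets in about 1 of 20 groups. Prdx1 was 7.75 on hemophagocyte 5, 3.16 above the next hemophagocyte. Prdx4 was 7.06 on resting macrophage 3, 1.23 above the next resting array. The other 4 gaps were under 0.3 log2 units. Mgst1 was 5.83 on resting macrophage 5, Gclc was 5.99 on the same array, Cat was 6.02 on hemophagocyte 6 and Txnrd2 was 6.44 on hemophagocyte 2. Gpx1 and Txn1 did not meet the criterion on hemophagocyte 2, since their other 3 hemophagocyte values spread as well.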

How the results depend on the processing

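Of 20 alternatives, 0 called any gene lower, and the median difference of the redox genes stayed between 0.02 and 0.10. The number of genes called higher, 4 in the fit reported, was 1 with the intensity trend and robust prior, with the mean of a gene's probe sets, with every probe set tested, with receptor background as a covariate and without hemophagocytes 3 and 5, 2 with only probe sets naming 1 gene, 9 with the replicate block, and 1 to 15 when single arrays were left out, the 15 without hemophagocyte 2. The number of redox genes called, 0 in the fit reported, was 1 with the replicate block (Gpx1, difference 2.35, adjusted p = 0.035; Txn1 had 1.97 and 0.0501) and 0 to 2 when single arrays were left out, the 2 (Gpx1 and Txn1) without hemophagocyte 2. In the block fit hemophagocyte 2 and resting macrophage 4 add nothing to the contrast. Deviations from the group means correlated at 0.137, 0.0554 and 0.123 across probe sets between arrays numbered 3, 5 and 6. Hemophagocytes 3 and 6 correlated best with the resting array of their number, and hemophagocyte 5 with resting macrophage 4 (0.132). The highest correlation, 0.235, was between hemophagocyte 2 and resting macrophage 3. These values do not settle whether the numbers pair the arrays. The labels do not say so, and the fit reported has no block.

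Gpx1 and Txn1 had higher values in 20 of 20 alternatives, with differences of 1.25 to 2.40 and 0.85 to 2.08 and limma adjusted p of 0.022 to 0.97 and 0.013 to 0.97. The sign held in every alternative run for 16 of the 31 genes, and no sign turned for a called gene. The filter on level left 17 redox genes. Signal over background limits the 27 genes within the receptor range.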
